A study of Mus musculus with 8 samples.

Results

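The genes of branched-chain amino acid catabolism described here are Bcat1, Bcat2, Bckdha, Bckdhb, Dbt, Bckdk, Ivd, Mccc1, Mccc2 and Hibch. They were chosen by symbol, for the enzymes they encode and because Bcat2 is discussed by the study. The study mentions Bcat2 for a pig model of supplementation, and not as a result in these mice. The members make up 10 of the 26586 genes in the table of counts. All 10 passed the filter on low counts, as did 13873 genes in all.

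The RNA-Seq part of the study compared primordial follicle transcripts between descendants of mitochondrially supplemented oocytes and controls. Founders were made by intracytoplasmic sperm injection together with mitochondria isolated from egg precursor cells of the same strain, and the mito-supplemented libraries came from primordial follicles of the third generation of their offspring. Controls were primordial follicles of mice that the study names only as controls for this comparison. It used colony controls for litter size and follicle counts, and mice derived by sperm injection for weight. If the controls here were colony mice without sperm injection, the injection and the added mitochondria cannot be told apart in this comparison. Both groups were C57Bl/6 x CBA mice on postnatal day 3, with 4 libraries per group, and each library was made from the pooled follicles of an ovary that had been digested with enzyme and picked by pipette. The labels call the libraries biological replicates, but most of their codes share a prefix and do not say which came from littermates. Controls 1 and 2 share one prefix and controls 3 and 4 another, while replicates 1 to 3 of the mito-supplemented group share C56 and its replicate 4 is the only C60 library, so that p-values measure the spread between these samples.

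Leucine, isoleucine and valine are first transaminated by a cytosolic (Bcat1) or a mitochondrial (Bcat2) aminotransferase, which passes the amino group to alpha-ketoglutarate and yields glutamate. The keto acids are then committed to breakdown by the branched-chain keto acid dehydrogenase complex of the mitochondrial matrix, which a kinase (Bckdk) switches off and a phosphatase (Ppm1k) switches on. The pathways then part, with Ivd and the carboxylase of Mccc1 and Mccc2 on the leucine branch and Hibch on the valine branch. A primordial follicle holds a small arrested oocyte within a single layer of flattened pregranulosa cells, and the oocyte relies on carbon and amino acids passed on by the cells around it.

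The libraries held 17658559, 13917412, 18219362 and 10370045 counts in controls 1 to 4. The 4 libraries of the mito-supplemented group held 19760763, 13370911, 16116434 and 13276462 counts. Ribosomal RNA genes took 75.3% of the counts in control 4, which left 2559876 counts on other genes, against 7280214 to 15778975 in the other libraries. The 10 genes together had 555 counts in control 4, 951 in control 2 and 1453 to 2760 in the other libraries, so that control 4 was the least precise. The lowest count of any member in any library was the 6 counts of Bckdha in mito-supplemented replicate 1, for which the exact Poisson 95% interval runs from 2.20 to 13.1 and covers counting error only. Levels below are in CPM, counts scaled by library total and by TMM factor, and levels of different genes are compared only as CPM per kb of exon.

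The label of primordial follicles was checked against markers of the cells that an ovary of this age could give. Summed over 10 oocyte markers, of which Sycp3 was the most abundant, the level was 1268 CPM in control 1, 53.9, 61.2 and 233.1 CPM in controls 2 to 4, and 167.1, 81.9, 258.6 and 43.4 CPM in replicates 1 to 4 of the mito-supplemented group. Oosp1 was at 0 counts in 6 of the 8 libraries and the other 9 markers had counts in all of them, so oocyte transcripts were found in every library, and control 1 stood far above the rest. The 7 pregranulosa markers, led by Wt1, summed to 222.0, 148.7, 248.9 and 728.3 CPM in controls and 305.2, 782.4, 580.4 and 990.2 CPM in mito-supplemented samples, and none was at 0 in any library.

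Other cell types were represented as well. The 4 red cell markers used, led by Slc4a1, summed to 3000 CPM, 1921 CPM and 3684 CPM in controls 2 and 3 and mito-supplemented replicate 1, and to 12.2 to 62.5 CPM in the other 5 libraries. Hba-a1 was at 0 counts in 7 of the 8 libraries and Hba-a2 in control 4, but these are near-identical copies whose reads the counting may split or drop, so that the list rests on Slc4a1 and Alas2. The summed level of the 4 leukocyte markers in the file was highest in the same 3 libraries, at 128.9, 112.3 and 721.9 CPM against 7.43 to 20.7 CPM. This came from Lyz2 and Ptprc, each highest in those 3, while Cd68 and Csf1r did not follow that order. The 7 surface epithelium markers, led per kb of exon by Krt18, summed to 77.2, 44.1, 34.4 and 320.7 CPM in controls. In mito-supplemented samples they summed to 325.2, 805.9, 346.6 and 607.6 CPM. This was the only one of the 7 marker lists whose summed level did not overlap between groups. Stroma markers, led per kb of exon by Dcn, ran from 314.3 to 2032 CPM in controls and from 927.9 to 2342 CPM in mito-supplemented samples. Endothelium markers, led by Kdr, ran from 25.1 to 210.8 CPM in controls and from 80.9 to 215.9 CPM in mito-supplemented samples. In bulk libraries such as these, fewer cells of a type and less RNA per cell cannot be told apart.

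**Figure D1:**
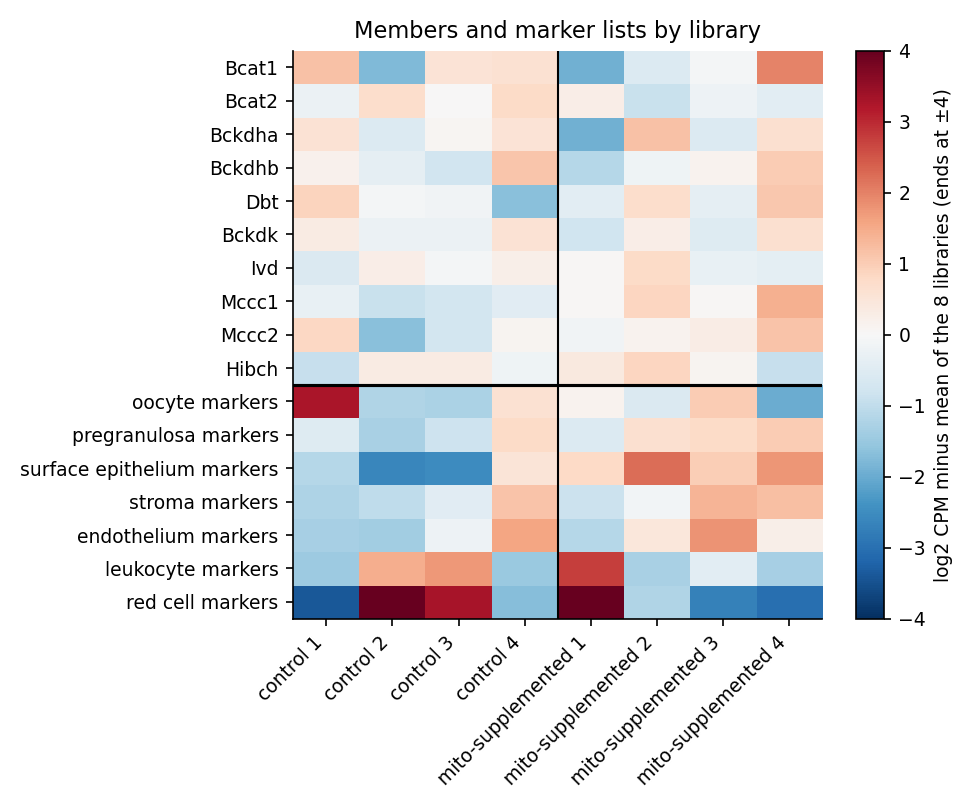
Colour gives log2 CPM minus the mean of the 8 libraries, for each of the 10 genes and for the mean of each marker list; the colour scale ends at 4 and -4. Controls 2 and 3 and mito-supplemented replicate 1 stand out by red cell and leukocyte markers, and control 1 by oocyte markers.

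Per kb of exon, the 10 genes were expressed at low levels. Mccc1 was the highest, with a mean of 6.43 ± 4.13 CPM per kb over the 8 libraries (SD, n = 8), followed by Bckdk at 6.34 ± 2.20, Hibch at 4.76 ± 1.92, Mccc2 at 3.84 ± 2.04 and Bckdhb at 3.53 ± 1.98. Then came Bcat2 at 3.35 ± 1.32, Dbt at 3.01 ± 1.65, Ivd at 2.31 ± 0.751, Bcat1 at 1.85 ± 1.61 and Bckdha at 0.909 ± 0.520 CPM per kb. The rank of Mccc1 came from the mito-supplemented samples, where its mean was 9.14 CPM per kb; in controls it was 3.71, below Bckdk at 6.65, Hibch at 4.34 and Bcat2 at 4.07. No gene was above its next neighbour in this order in more than 6 of the 8 libraries, and each gap between neighbours was smaller than the SD of the higher gene. The steadiest level was that of Ivd, which varied 2.58-fold between the lowest and the highest library, and the most variable was that of Bcat1, which varied 15.7-fold.

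**Figure D2:**
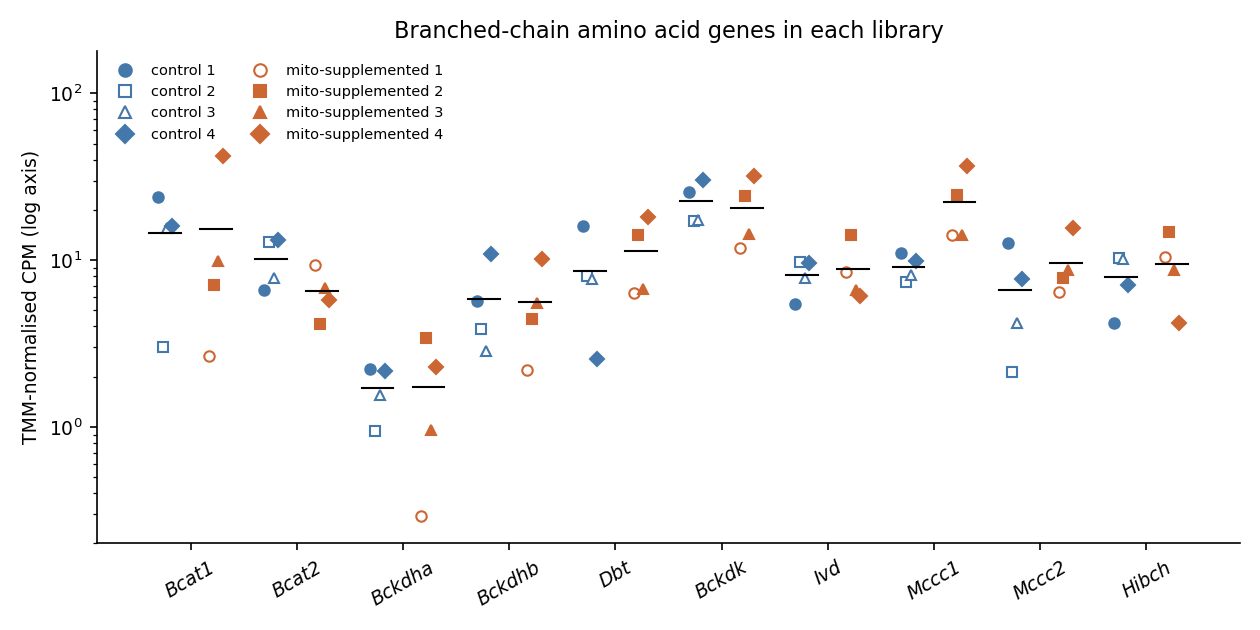
Points give the TMM-normalised CPM of each gene in each library on a log axis, and bars the group means; open symbols mark controls 2 and 3 and mito-supplemented replicate 1, the libraries rich in red cell transcripts. Mccc1 is the only gene whose groups do not overlap.

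None of the 10 genes was called between the groups by the main test, edgeR's quasi-likelihood test at a threshold of 0.05 after Benjamini-Hochberg adjustment over all genes tested. The same test called 0 of 13873 genes (0%), while edgeR's likelihood ratio test called 58 (0.418%), DESeq2 141 (1.02%) and limma-voom with sample quality weights 2913 (21%). The likelihood ratio test and DESeq2 called 0 of the 10, and limma-voom with sample quality weights called 1, Mccc1. At an unadjusted p under 0.05, the quasi-likelihood test found 1 of the 10 genes, Mccc1, against 1069 of all genes (7.71%), made up of 736 higher (5.31%) and 333 lower (2.4%) genes, and limma-voom with sample quality weights found 2, Mccc1 and Mccc2, against 5222 (37.6%). One gene in 10 is thus close to the share over all genes. The number of all genes at this threshold changed by more than 1.5 times when 1 library was left out, to 572 or 636 without replicate 2 or replicate 4 of the mito-supplemented group, 1863 without control replicate 4, and 2003 without replicate 1 of the mito-supplemented group.

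The fitted log2 fold changes, mito-supplemented against control, were above 0 for 7 of the 10 genes and below 0 for 3, with a median of 0.093 beside a median of -0.098 over all genes tested. When libraries were scaled by their size alone, the median over all genes shifted by 0.27, to 0.17, and that of the 10 genes moved to 0.40, so that both shifted upwards together. The median of the 10 genes was also unsteady to single libraries, at -0.0092 when mito-supplemented replicate 4 was left out and 0.32 when replicate 1 of that group was, and it was -0.11 with red-cell-rich library as a term in the fit. The split of all genes at an unadjusted p under 0.05 depended on the setting too, with 1288 higher and 53 lower when scaled by size alone, but 1006 and 997 without mito-supplemented replicate 1, and 2664 and 2558 by limma-voom with sample quality weights. The median biological coefficient of variation of the 10 genes was 0.627, beside 0.671 over all genes.

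**Figure D3:**
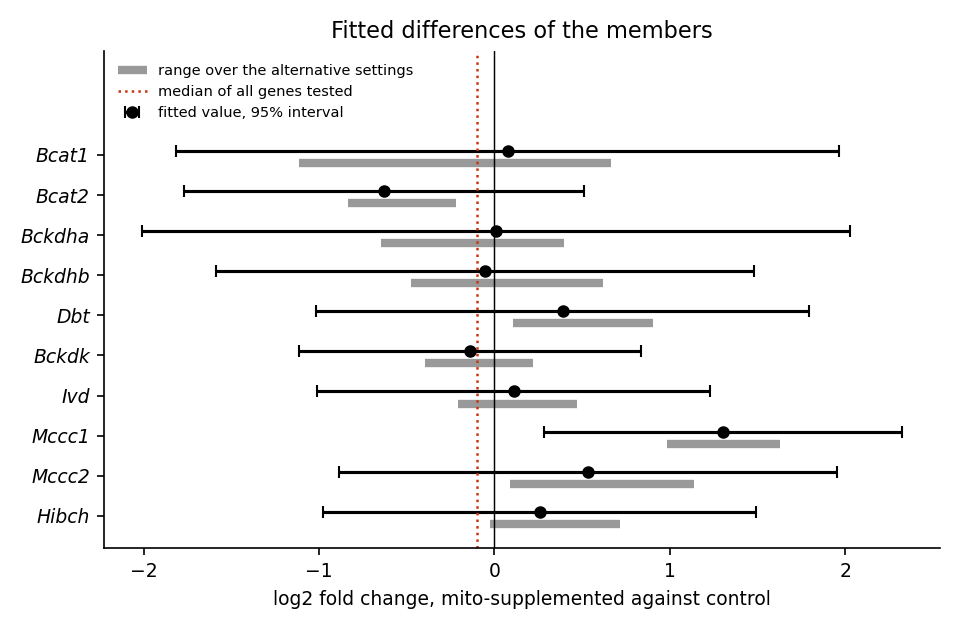
Black points give the log2 fold change of each gene by edgeR's quasi-likelihood fit with its 95% interval, and grey bars the range over 20 alternative settings. Only the interval of Mccc1 lies clear of 0, and the grey bars of Bcat1, Bckdha, Bckdhb, Bckdk, Ivd and Hibch cross 0.

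Bcat1 and Bcat2 carry out the reversible first step, in the cytosol and in the mitochondrion. Bcat1 lies at chr6:144993835-145076184 and Bcat2 at chr7:45570153-45589711 of GRCm38. On the opposite strand, Gm26666 overlaps 337 of the 9322 bases in all annotated exons of Bcat1, and 0610005C13Rik overlaps 622 of the 3900 of Bcat2. The exon lengths used per kb were shorter, 8129 and 2489 bases, and the overlap within them was not measured. The strand setting of the counting is not given in the sources used here, so reads from these overlaps cannot be told apart. Bcat1 measured 23.9, 3.01, 15.5 and 16.0 CPM in controls 1 to 4, and 2.67, 7.06, 9.89 and 42.0 CPM in replicates 1 to 4 of the mito-supplemented group. Mito-supplemented samples thus held both its lowest and its highest library, and the group means, 14.6 ± 8.64 and 15.4 ± 18.0 CPM (SD, n = 4), were close together. The log2 fold change was 0.075 (SE 0.85, 95% interval -1.81 to 1.96, adjusted p = 0.983 by edgeR's quasi-likelihood test), and it became -1.11 when mito-supplemented replicate 4 was left out and -0.26 when control replicate 2 was.

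Bcat2 measured 6.60, 12.8, 7.83 and 13.2 CPM in controls, and 9.41, 4.16, 6.76 and 5.77 CPM in mito-supplemented samples. Controls 2 and 4 were the highest, mito-supplemented replicate 2 was the lowest, and the groups overlapped. The means were 10.1 ± 3.40 and 6.52 ± 2.20 CPM (SD, n = 4), and the log2 fold change was -0.63 (SE 0.51, 95% interval -1.77 to 0.51, adjusted p = 0.747 by edgeR's quasi-likelihood test). It was below 0 in all 20 alternative settings, from -0.83 to -0.22, and its unadjusted p in those fits ran from 0.130 to 0.730.

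The balance of the 2 aminotransferases was set out as the log2 ratio of Bcat1 to Bcat2 counts per kb within each library, a value that does not depend on scaling between libraries. Bcat1 made up 52.5, 6.76, 37.7 and 27.0% of the pair in controls 1 to 4, and 8.03, 34.2, 30.9 and 68.9% in replicates 1 to 4 of the mito-supplemented group. Per kb of exon, transcripts of the mitochondrial form thus exceeded those of the cytosolic form in 6 of the 8 libraries, all but control 1 and mito-supplemented replicate 4. This order rests on the exon lengths, 8129 bases for Bcat1 and 2489 for Bcat2. By counts alone Bcat1 was the higher except in control 2 (38 against 162) and mito-supplemented replicate 1 (55 against 194). The lowest Bcat1 shares, below 10%, were in control 2 and mito-supplemented replicate 1, which are among the 3 libraries rich in red cell and leukocyte transcripts; the part of those cells in the ratio was not tested. The mean log2 ratios of control and mito-supplemented samples were -1.45 ± 1.69 and -1.12 ± 1.91 (SD, n = 4; difference 0.33, exact permutation test, two-sided, p = 0.771, and 0.771 after adjustment over 4 ratios), and the difference turned to -0.45 when control replicate 2 was left out and to -0.42 when mito-supplemented replicate 4 was.

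**Figure D4:**
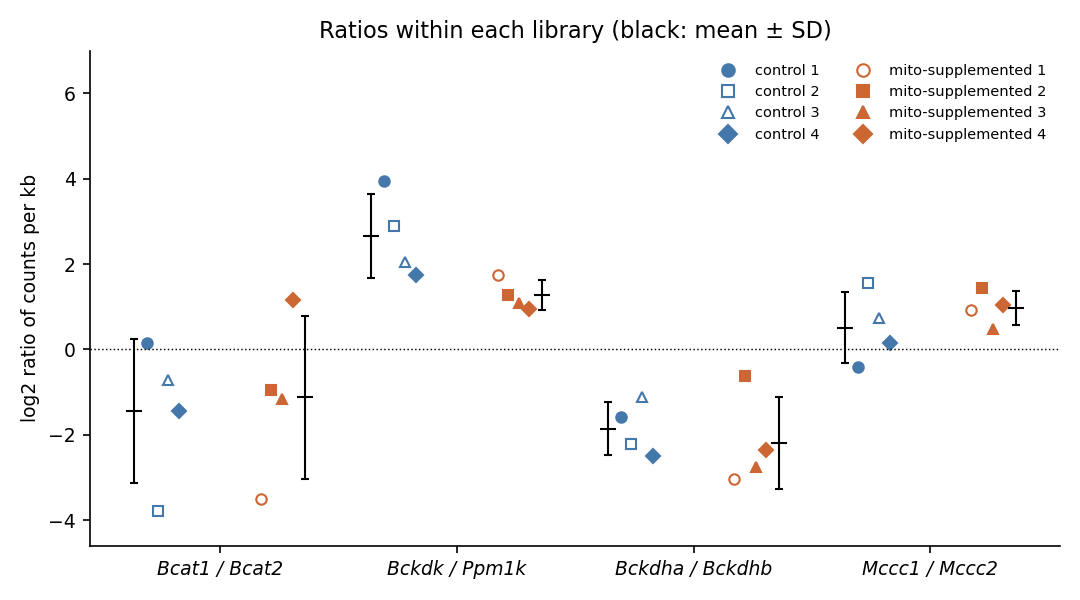
Points give the log2 ratio of counts per kb of each pair of genes within each library, with 0.5 added to each count, and black marks the mean ± SD of each group (n = 4). Bckdk to Ppm1k ratios run from 1.74 to 3.95 in controls and from 0.94 to 1.75 in mito-supplemented samples, and the other ratios overlap widely.

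Among the genes tested with a mean of at least 10 CPM, 8050 in all, those whose log2 CPM followed Bcat1 most closely over the 8 libraries were Tgfa (Pearson r = 0.94), Cyb5b (0.93), Fpgt (0.92), Zscan12 (0.91) and Id2 (0.90). Without control 2 and mito-supplemented replicate 1, where Bcat1 lay farthest from its median, r was 0.81 for Tgfa, 0.89 for Cyb5b, 0.93 for Fpgt, 0.86 for Zscan12 and 0.77 for Id2. Those closest to Bcat2 were Snap29 (r = 0.95), Emb (0.93), Mrpl3 (0.92), Ap2a1 (0.91) and 2310044G17Rik (0.91). These are descriptions of 8 libraries that share their scaling and were picked as the highest of many.

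Bckdha, Bckdhb and Dbt encode the alpha and beta subunits of the decarboxylase and the acyltransferase core of the dehydrogenase complex. Bckdha lies at chr7:25629946-25658981, Bckdhb at chr9:83925145-84124240 and Dbt at chr3:116513070-116549981. Bckdha, the lowest of the 10 genes per kb, measured 2.22, 0.951, 1.54 and 2.17 CPM in controls, and 0.291, 3.39, 0.953 and 2.29 CPM in mito-supplemented samples. Its values were spread over both groups, with a log2 fold change of 0.0091 (95% interval -2.01 to 2.02) that fell below 0 without any one of control replicates 2 and 3 and mito-supplemented replicates 2 and 4 (-0.19, -0.039, -0.54 and -0.12). Of its 1899 exon bases, 1171 overlap B3gnt8 on the other strand, so that its counts are uncertain for the same reason.

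Bckdhb measured 5.66, 3.88, 2.86 and 10.9 CPM in controls, and 2.18, 4.43, 5.54 and 10.2 CPM in mito-supplemented samples. Replicate 4 was the highest of each group, and the log2 fold change of -0.053 (95% interval -1.59 to 1.48) became 0.45 without control replicate 4, and 0.25 and 0.048 without replicates 1 and 2 of the mito-supplemented group. Dbt measured 16.0, 8.01, 7.66 and 2.57 CPM in controls, and 6.31, 14.1, 6.67 and 18.1 CPM in mito-supplemented samples. The groups overlapped, with a log2 fold change of 0.39 (95% interval -1.01 to 1.80), and the lowest value, in control 4, rested on 13 counts. Dbt moved to 0.10 without mito-supplemented replicate 4, 0.11 without control replicate 4 and 0.90 without control replicate 1.

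Bckdhb exceeded Bckdha per kb in 8 of 8 libraries. The log2 ratio of Bckdha to Bckdhb ran from -2.51 to -1.11 in controls, at -1.58, -2.22, -1.11 and -2.51, and from -3.04 to -0.62 in mito-supplemented samples, at -3.04, -0.62, -2.75 and -2.36. The means were -1.86 ± 0.628 and -2.19 ± 1.09 (SD, n = 4; exact permutation test, two-sided, p = 0.600, and 0.771 after adjustment over 4 ratios). The difference of -0.34 became -0.86 without mito-supplemented replicate 2, -0.054 without mito-supplemented replicate 1, and 0.13 without the 3 libraries rich in red cell transcripts.

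Bckdk, the kinase that holds the complex inactive, lies at chr7:127904082-127910221 and measured 25.5, 17.2, 17.4 and 30.4 CPM in controls, and 11.7, 24.4, 14.2 and 31.8 CPM in mito-supplemented samples. It was among the least variable of the 10 genes, and its log2 fold change was -0.14 (SE 0.44, 95% interval -1.11 to 0.84), which became 0.052 without control replicate 4, 0.084 and 0.034 without replicates 1 and 3 of the mito-supplemented group, and 0.17 when scaled by library size only. Ppm1k, the phosphatase that opposes it, measured 2.67, 3.73, 6.92 and 14.8 CPM in controls, and 5.68, 16.6, 10.9 and 27.0 CPM in mito-supplemented samples. The log2 fold change of Ppm1k was 1.11 (SE 0.68, 95% interval -0.41 to 2.63, adjusted p = 0.698 by edgeR's quasi-likelihood test). It fell to 0.69 when mito-supplemented replicate 4 was left out, and rose to 1.77 when control replicate 4 was (unadjusted p = 0.0265 by the same test) and to 1.70 with scaling by library size (unadjusted p = 0.0238).

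Of the 4 ratios, that of Bckdk to Ppm1k differed most between the groups. Bckdk exceeded Ppm1k per kb by 15.5-, 7.48-, 4.11- and 3.34-fold in controls 1 to 4, and by 3.37-, 2.40-, 2.14- and 1.92-fold in replicates 1 to 4 of the mito-supplemented group. The groups met at a single point, where control 4 fell just below mito-supplemented replicate 1. On the log2 scale the means were 2.66 ± 0.994 and 1.26 ± 0.351 (SD, n = 4), a difference of -1.39 (exact permutation test, two-sided, p = 0.0571, and 0.229 after adjustment over 4 ratios). The smallest p this design allows is 0.0286, which is 0.114 after adjustment when 1 ratio alone reaches it, so that a single ratio could not pass the threshold. The difference was -0.96 without control replicate 1, the library rich in oocyte transcripts and the one with the highest ratio, and -1.75 without the 3 libraries rich in red cell transcripts, and over the 8 fits that each dropped a library it lay between -1.70 and -0.96. The part of the differing cell content in this ratio was not tested.

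Ivd, isovaleryl-CoA dehydrogenase, lies at chr2:118861954-118882909 and measured 5.46, 9.75, 7.78 and 9.67 CPM in controls, and 8.44, 14.1, 6.58 and 6.12 CPM in mito-supplemented samples. Mito-supplemented replicate 2 was the highest and control 1 the lowest, and the groups overlapped. The log2 fold change of 0.11 (95% interval -1.01 to 1.23) became -0.21 when mito-supplemented replicate 2 was left out and -0.023 when control replicate 1 was.

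Mccc1 and Mccc2 encode the biotin-carrying alpha subunit and the beta subunit of methylcrotonyl-CoA carboxylase, the biotin enzyme that follows Ivd. Mccc1 lies at chr3:35959312-36000678 and Mccc2 at chr13:99948530-100015639. Mccc1 measured 11.0, 7.37, 8.12 and 9.87 CPM in controls, and 14.1, 24.7, 14.2 and 36.9 CPM in mito-supplemented samples. The lowest mito-supplemented library lay above the highest control, as was so for 416 of the 13873 genes tested (3%), while 282 (2.03%) lay wholly below and none of the other 9 genes was separated either way. The means were 9.10 ± 1.66 and 22.5 ± 10.9 CPM (SD, n = 4), with a log2 fold change of 1.30 (SE 0.46, 95% interval 0.28 to 2.32), larger than that of 90.9% of genes tested. The unadjusted p was 0.0173 and the adjusted p 0.626 by edgeR's quasi-likelihood test, and 0.0163 and 0.388 by its likelihood ratio test, so the difference did not pass the threshold over all genes.

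The log2 fold change of Mccc1 stayed between 0.99 and 1.63 in all 20 alternative settings, and its unadjusted p was under 0.05 in 18 of them. The adjusted p in these fits ran from 0.0413, by limma-voom with sample quality weights, to 0.971. The 2 settings with an unadjusted p above 0.05 were those that left out the 3 libraries rich in red cell transcripts, a choice made after seeing the data, where 2 controls remained. Over the 8 libraries the log2 CPM of Mccc1 followed the mean of the surface epithelium markers (Pearson r = 0.85, n = 8) and that of the pregranulosa markers (r = 0.73). Like Mccc1, the summed surface epithelium markers were higher in every mito-supplemented library than in any control. An r over both groups therefore holds this group difference as well. The part of these cells in the result was not tested. Of the 10952 bases in all annotated exons of Mccc1, 613 overlap the antisense transcripts Gm15952, B230207O21Rik and Mccc1os. Without a stated strand setting their reads cannot be told apart. The exon length used per kb was 2455 bases, and the overlap within it was not measured.

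Mccc2, whose product works in the same enzyme, measured 12.6, 2.14, 4.17 and 7.70 CPM in controls, and 6.45, 7.83, 8.76 and 15.6 CPM in mito-supplemented samples. Control 1 was among the highest and control 2 the lowest, so that the groups overlapped, with means of 6.66 ± 4.60 and 9.65 ± 4.06 CPM (SD, n = 4) and a log2 fold change of 0.53 (SE 0.64, 95% interval -0.88 to 1.95). It was above 0 in all 20 alternative settings, from 0.091 to 1.14, and single libraries moved it to 0.24 (control replicate 2 left out) and 1.08 (control replicate 1 left out). The log2 ratio of Mccc1 to Mccc2 was -0.40, 1.56, 0.75 and 0.14 in the controls, against 0.91, 1.44, 0.48 and 1.03 after mitochondrial supplementation, so that Mccc1 exceeded Mccc2 per kb in 7 of 8 libraries. The mean ratio was 0.51 ± 0.840 and 0.97 ± 0.395 (SD, n = 4; exact permutation test, two-sided, p = 0.371, and 0.743 after adjustment over 4 ratios), and the groups overlapped. The difference of 0.46 was 0.15 when control replicate 1 was left out, 0.81 when control replicate 2 was, and 1.12 without the 3 libraries rich in red cell transcripts.

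Hibch, which releases 3-hydroxyisobutyrate on the valine branch, lies at chr1:52844929-52920986 and measured 4.23, 10.2, 10.2 and 7.11 CPM in controls, and 10.5, 14.7, 8.67 and 4.17 CPM in mito-supplemented samples. The lowest values, in control 1 and mito-supplemented replicate 4, were those of the libraries where Bcat1 was highest. The log2 fold change was 0.26 (95% interval -0.97 to 1.49), and it became -0.025 without mito-supplemented replicate 2.

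The 10 genes did not vary as 1 group over the libraries. Of their 45 pairs, 24 had a Pearson r of log2 CPM above 0, and the median r was 0.033 (n = 8 libraries, which share their scaling). The closest pairs were Bckdha with Bckdk (r = 0.87), Bckdhb with Bckdk (0.83) and Ivd with Hibch (0.81), while Bcat1 with Hibch (-0.76) and Bcat2 with Dbt (-0.76) were the most opposed. The log2 CPM of Bckdha, Bckdhb and Bckdk was lower where the leukocyte markers were higher (r = -0.83, -0.85 and -0.83). That of Mccc2, Bckdhb and Bcat1 was lower where the red cell markers were higher (r = -0.83, -0.79 and -0.74). Mccc2 also rose with pregranulosa (0.73) and surface epithelium markers (0.68), and Bckdhb with pregranulosa (0.71) and stroma markers (0.70). The part of those cells in these relations was not tested.

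Further genes of the pathway and its surroundings were taken from 5 lists of 60 genes in all, of which 59 were tested and 0 were called by edgeR's quasi-likelihood test. At an unadjusted p under 0.05 there were 6 of 59 (10.2%), 5 higher and 1 lower in mito-supplemented samples, beside 7.71% of all genes tested (5.31% higher and 2.4% lower). The groups of 6 of the 59 did not overlap, beside 3% of all genes that were separated upwards and 2.03% downwards. The median log2 fold change was 0.036 beside -0.098 over all genes. Adjusted p values were 0.544 or higher in these lists, so that the genes named next are described by their values. Genes were named for an unadjusted p under 0.05, for separated groups, or for a high mean per kb over the 8 libraries pooled, an order that differed within the groups.

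Of 6 transporters, 0 had an unadjusted p under 0.05, and the median log2 fold change was -0.29. The most abundant per kb were Slc43a1 and Slc7a5, which carry large neutral amino acids across the plasma membrane. Slc43a1 measured 501.5, 329.4 and 453.0 CPM in controls 2 and 3 and mito-supplemented replicate 1, and 1.15 to 13.9 CPM in the other 5 libraries. It was thus high in the same 3 libraries as Slc4a1 and Alas2, and the part of red cells in its level was not tested. Slc7a5 ran from 54.7 to 79.6 CPM in controls and from 21.5 to 149.8 CPM in mito-supplemented samples, with its highest value in replicate 1.

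Of 16 genes of other catabolic steps, 0 had an unadjusted p under 0.05, and the median log2 fold change was 0.086. Hibadh, the dehydrogenase that acts on the product of Hibch, measured 15.0, 10.9, 10.2 and 12.4 CPM in controls and 19.7, 18.4, 17.7 and 18.5 CPM in mito-supplemented samples. All 4 mito-supplemented values lay above the controls, with a log2 fold change of 0.61 (SE 0.37, unadjusted p = 0.128 by edgeR's quasi-likelihood test). Pcca, the alpha subunit of propionyl-CoA carboxylase, lay wholly lower, at 19.4, 16.6, 18.4 and 18.0 CPM in controls and 14.1, 15.6, 13.6 and 5.84 CPM in mito-supplemented samples (log2 fold change -0.56, SE 0.43, and -0.30 without mito-supplemented replicate 4). The most abundant per kb were Acat1, with 34.2 CPM per kb over the 8 libraries, and Hsd17b10, with 31.8, which act at the end of the isoleucine branch.

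Of 9 genes of regulation and cofactors, 8 were tested; Klf15 was filtered out, with no counts in 4 of the 8 libraries. Mmab, of cobalamin metabolism, was the only one with an unadjusted p under 0.05 by edgeR's quasi-likelihood test (0.0314, log2 fold change 1.57, SE 0.63), at 3.73, 5.07, 3.03 and 11.1 CPM in controls and 12.0, 9.42, 11.5 and 34.6 CPM in mito-supplemented samples, which overlapped at control 4. Its unadjusted p was under 0.05 in 14 of the 20 alternative settings, and the log2 fold change fell to 0.98 when mito-supplemented replicate 4 was left out (unadjusted p = 0.129 by edgeR's quasi-likelihood test). The most abundant per kb over the 8 libraries were Lias, of lipoic acid synthesis, with 5.31 CPM per kb, and Btd, biotinidase, with 3.87 CPM per kb, though in mito-supplemented samples Mmab was the highest, with 5.59 CPM per kb. The median log2 fold change of the list was -0.32.

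Of 15 genes that make or use alpha-ketoglutarate, 2 had an unadjusted p under 0.05, both higher in mito-supplemented samples, and the median log2 fold change was 0.13. Gpt2, the mitochondrial alanine aminotransferase, measured 4.31, 4.04, 3.49 and 7.11 CPM in controls and 4.51, 14.7, 11.8 and 24.9 CPM in mito-supplemented samples (log2 fold change 1.57, SE 0.60, unadjusted p = 0.0253 by edgeR's quasi-likelihood test). Idh1, the cytosolic isocitrate dehydrogenase, measured 40.7, 33.2, 33.7 and 77.4 CPM in controls and 55.5, 150.1, 120.0 and 75.8 CPM in mito-supplemented samples (log2 fold change 1.12, SE 0.43, unadjusted p = 0.0270 by the same test). Replicates 2 and 3 carried the highest Idh1 values, replicate 4 the highest Gpt2 value, and the groups overlapped for both. The unadjusted p was under 0.05 in 13 of the 20 alternative settings for Gpt2 and in 12 for Idh1. The most abundant genes per kb over the 8 libraries were Idh3b and Idh3g, subunits of the mitochondrial isocitrate dehydrogenase, with 37.2 and 36.9 CPM per kb, though in mito-supplemented samples Idh1 was the highest, with 40.5 CPM per kb.

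Of 14 genes of leucine sensing and of the mTOR kinase complex, 2 were higher and 1 lower at an unadjusted p under 0.05, with a median log2 fold change of -0.090. Rragd, a GTPase that brings mTOR complexes to the lysosome, measured 5.41, 9.75, 13.7 and 7.50 CPM in controls and 14.0, 40.0, 27.9 and 41.9 CPM in mito-supplemented samples. Its groups did not overlap, and its log2 fold change was 1.76 (SE 0.49, unadjusted p = 0.00460 and adjusted p = 0.544 by edgeR's quasi-likelihood test). In alternative settings the adjusted p of Rragd ran from 0.0234 to 0.971, and it passed 0.05 with limma-voom with sample quality weights and with the likelihood ratio test without the 3 libraries rich in red cell transcripts, which called 175 of 14568 genes.

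Rragb, a GTPase of the same complex, measured 1.11, 1.35, 0.915 and 2.57 CPM in controls and 4.22, 3.81, 3.40 and 11.3 CPM in mito-supplemented samples (log2 fold change 1.96, SE 0.75, unadjusted p = 0.0258 by edgeR's quasi-likelihood test). Rraga, a partner of Rragd in that complex, measured 14.0, 18.2, 19.8 and 14.2 CPM in controls and 27.9, 24.2, 24.9 and 28.6 CPM in mito-supplemented samples (log2 fold change 0.67, SE 0.34, unadjusted p = 0.0757 by the same test). Rptor, the scaffold of mTOR complex 1, was the lower one, at 68.4, 60.5, 55.9 and 75.0 CPM in controls and 52.0, 44.0, 27.1 and 21.1 CPM in mito-supplemented samples (log2 fold change -0.85, SE 0.37, unadjusted p = 0.0436 by the same test). The groups of all 3 genes were separated, as were those of Rragd, and separation was among the reasons for naming genes. Of all genes tested, 3% were separated upwards and 2.03% downwards. Over the 8 libraries the mean of the surface epithelium markers, which rose with Mccc1, also rose with Rragb (Pearson r = 0.86), Rragd (0.67) and Rraga (0.55). It rose with Hibadh (0.86), Idh1 (0.90), Gpt2 (0.83) and Mmab (0.81) too, but not with Rptor (-0.56) and Pcca (-0.54). The mean of the pregranulosa markers rose with Gpt2 (0.88), Idh1 (0.86), Mmab (0.76), Rragb (0.73), Rragd (0.59), Hibadh (0.56) and Rraga (0.30). It did not rise with Rptor (-0.59) and Pcca (-0.53). Stroma and endothelium markers rose with Gpt2 (0.74 and 0.57), Idh1 (0.66 and 0.73), Mmab (0.70 and 0.43), Rragb (0.61 and 0.36) and Rragd (0.52 and 0.40). They rose less with Rraga (0.27 and 0.10) and Hibadh (0.26 and 0.15), and not with Rptor (-0.61 and -0.37) and Pcca (-0.53 and -0.16). These genes were named for an unadjusted p under 0.05 or for separated groups, and the summed surface epithelium markers were separated too. Each r over the 8 libraries thus holds the group difference, and relations within the groups were not tested. The part of these cells in the levels of these genes was not tested. The unadjusted p was under 0.05 in 20 of the 20 alternative settings for Rragd, 15 for Rragb and 8 for Rptor. Adjusted p values were also under 0.05 by limma-voom with sample quality weights (21% of all genes called) for Rragb (0.0419), Idh1 (0.0124), Gpt2 (0.0284) and Mmab (0.0285). The most abundant genes of the list per kb were Sesn1, with 17.5 CPM per kb, and Lars, with 14.5 CPM per kb.

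**Figure D5:**
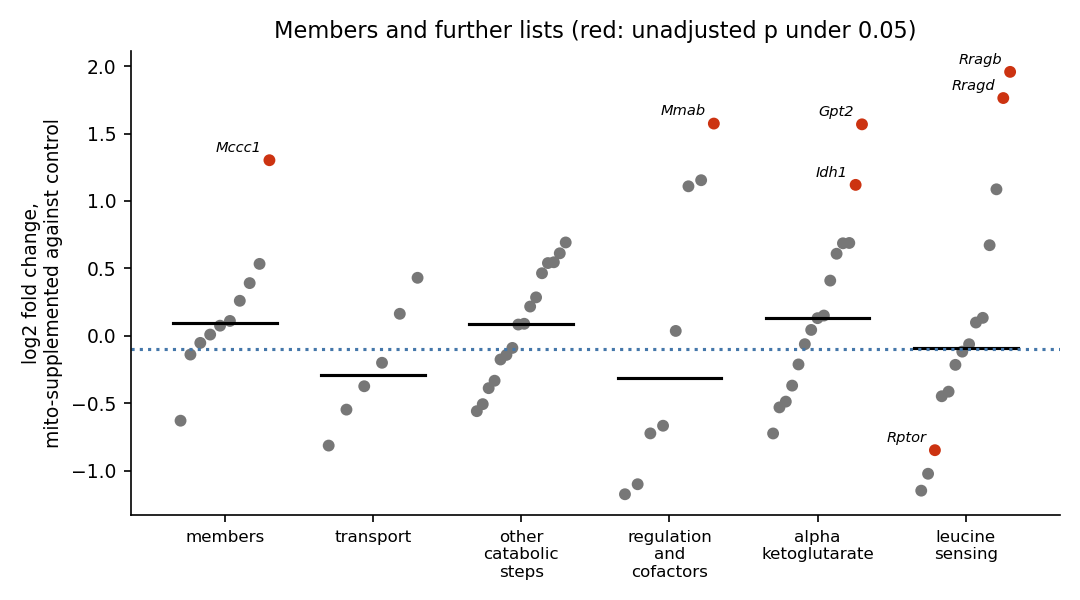
Points give the log2 fold change, mito-supplemented against control, of each tested gene of the 10 members and the 5 further lists, black lines the list medians, and the dotted line the median of all genes tested, -0.098. Red points have an unadjusted p under 0.05 by edgeR's quasi-likelihood test; no point passed after adjustment.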

How the data were processed

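Total RNA from primordial follicles was amplified and sequenced as single reads by the authors. Their processing notes name Trim Galore 0.4.4, STAR 2.5.3a, featureCounts, edgeR 3.20.9 and build mm10; the annotation release and strand setting are not given in the sources used here. The authors deposited raw counts per gene, without normalization. A control library that the study set aside was not analysed here.

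The counts were analysed in R 4.3.3 with edgeR 4.0.16 (TMM, filterByExpr defaults, quasi-likelihood test, Benjamini-Hochberg adjustment over 13873 genes), and with its likelihood ratio test, DESeq2 1.42.0 and limma 3.58.1 as alternatives. Log2 CPM used a prior count of 2. Ratios within libraries used counts per kb of exon with 0.5 added and exact permutation tests over samples. The scripts were tested on simulated counts. Exon lengths and positions are from GENCODE M21 (GRCm38), which 24590 of 26586 symbols matched. Exon length is that of transcripts linked to RefSeq, while overlaps with other genes were counted over all annotated exons.

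The members and lists were chosen with earlier results of these data known. Named were all 10 members; of each further list, genes with an unadjusted p under 0.05 or separated groups and the 2 most abundant per kb; and the 5 genes most like Bcat1 and Bcat2 in genes of at least 10 CPM. Ppm1k was named for its ratio to Bckdk. A library was called rich in red cell transcripts above 10000 counts of Slc4a1. A further red cell marker is not reported here and was left out of that list.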

Additional observations from a re-analysis of the deposited data

Results flagged for a closer look

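In groups of 4 libraries, a library was taken as far from the others where its gap to the nearest of them exceeded, as a share of the group's range, Dixon's 95% critical value. Of 64 groups examined, 7 held such a library. Chance gives about 1 in 20 for normally distributed values, which summed CPM need not be. Marker lists were judged on summed CPM but Pcca on log2 CPM, so that flags on these scales cannot be set side by side. None of the 10 branched-chain genes and none of the 4 ratios was among the flagged groups.

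Pcca in mito-supplemented replicate 4 was at 2.58 log2 CPM, against 3.77 to 3.97 in the other 3, and the log2 fold change of Pcca was -0.30 without it. The summed oocyte markers of control 1 were at 1268 CPM against 53.9 to 233.1 CPM. Control 4 stood apart from the other controls in surface epithelium markers (320.7 CPM against 34.4 to 77.2), stroma markers (2032 CPM against 314.3 to 600.0) and endothelium markers (210.8 CPM against 25.1 to 41.3). Mito-supplemented replicate 1 stood apart from its group in leukocyte markers (721.9 CPM against 8.55 to 14.5) and red cell markers (3684 CPM against 15.6 to 62.5). The part of these cells in the levels of the 10 genes was not tested.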

How the results depend on the processing

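Over the 8 fits that each dropped a library, the quasi-likelihood test called 0 of the 10 genes and found 1, Mccc1, at an unadjusted p under 0.05. Over these fits the number of all genes at that threshold ran from 572 to 2003. The log2 fold change ran from -1.11 to 0.47 for Bcat1, -0.54 to 0.39 for Bckdha, -0.48 to 0.45 for Bckdhb, -0.40 to 0.084 for Bckdk, -0.21 to 0.27 for Ivd and -0.025 to 0.53 for Hibch, and the Bcat1 to Bcat2 difference from -0.45 to 1.13.

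By limma-voom with sample quality weights, 1 of the 10 genes was called and 2 were at an unadjusted p under 0.05, beside 5222 of all genes, and the log2 fold changes that turned were -0.26 for Bcat1, -0.023 for Bckdha and 0.51 for Bckdhb. With library size only, Bckdhb turned to 0.40 and Bckdk to 0.17. With at least 1 count in any sample, Bckdhb turned to 0.0017. With counts summed by label prefix (2 against 2, of which C60 is mito-supplemented replicate 4 alone), Bckdhb turned to 0.62, Bckdk to 0.22 and Hibch to -0.027.

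In settings added after seeing the data, 0 of the 10 genes were at an unadjusted p under 0.05 without the 3 libraries rich in red cell transcripts, beside 1576 of 14568 genes tested by the quasi-likelihood test and 2021 by the likelihood ratio test. Bcat1 turned to -0.0065 and -0.0055 in these fits and the Bckdha to Bckdhb difference to 0.13. With red-cell-rich library as a term, Bcat1 turned to -0.60 and Bckdha to -0.64.

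The replicate numbers did not pair the samples (correlations of same-numbered deviations -0.24, -0.19, -0.33 and 0.22). With the replicate block 0 of the 10 genes were called, 1 was at an unadjusted p under 0.05, beside 981 of all genes, and Bcat1 turned to -0.18 and Bckdha to -0.38.

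Bcat2, Dbt, Mccc1 and Mccc2 kept their direction in all 20 alternatives. The causes were not tested. With 4 libraries per group, 95% intervals of the 10 genes reach about 1 to 2 on either side on the log2 scale.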
